A study of Rattus norvegicus with 6 samples.

Results

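The 9 genes described here encode the retinoid X receptors (Rxra, Rxrb and Rxrg), the retinoic acid receptors (Rara, Rarb and Rarg) and the peroxisome proliferator-activated receptors (Ppara, Ppard and Pparg). They were taken by gene symbol from the annotation of the array, as 9 of the 17245 genes that could be named, and each was read from its brightest probe set, the group of probes whose signal is summarised to 1 value. Expression was measured in neural stem and progenitor cells (NSPCs) of the adult rat hippocampus, cultured as neurospheres, which are floating spheres of cells. All 6 cultures were kept for 4 days with fibroblast growth factor 2 (FGF2) at 10 ng/ml. In 3 of them, the active A-NSPCs, this was the only factor added, and in the other 3, the quiescent Q-NSPCs, bone morphogenetic protein 4 (BMP4) at 50 ng/ml was added to it. Quiescence here is therefore a state set in culture by an added factor, in cells already expanded in FGF2, and the sources used here do not say how many animals the cells came from. Total RNA of each culture was hybridised to 1 Affymetrix GeneChip Rat Gene 1.1 ST array, and each culture carries the label of a biological replicate. What the 3 cultures of a group share is not stated, so the p-values below measure the spread between these cultures, whatever its source.

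These receptors are transcription factors that are switched by small lipid ligands. A retinoid X receptor (RXR) pairs with a retinoic acid receptor (RAR), with a peroxisome proliferator-activated receptor (PPAR) or with one of several other nuclear receptors, and the pair binds DNA at repeats of a short half-site. The spacing between the half-sites differs with the partner: RXR with RAR classically binds direct repeats spaced by 5 bases (DR5), and RXR with PPAR binds direct repeats spaced by 1 base (DR1). Without an activating ligand, many such pairs hold corepressors on their target genes, and ligand exchanges these for coactivators. Retinoic acid is made from vitamin A, patterns the embryonic nervous system and acts in neuronal differentiation, and the PPARs are activated by fatty acids and their derivatives and control genes of lipid handling and fatty acid oxidation. The study asked which signalling pathways set quiescent NSPCs apart from active ones, and the comparison here addresses that question for these receptors, for the enzymes and carriers that supply their ligands, and for their known target genes. From these arrays, the study reported the PPAR pathway among those enriched in Q-NSPCs. That pathway analysis was not repeated here, and the gene lists below are not those it used.

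Of the 9 receptors, 1 changed, where 14.1% of all genes did. Rxra was 2.45-fold higher in Q-NSPCs than in A-NSPCs, and neither Rxrb nor Rxrg passed the test. None of the 3 RARs and none of the 3 PPARs passed it, with Rarg giving the next largest difference after Rxra, a 1.45-fold higher mean in Q-NSPCs. In the lists of partners, ligand handling, targets and coregulators described below, the 3 genes that passed the test with the largest changes were Rbp4, which encodes the plasma carrier of retinol and was 4.75-fold higher in Q-NSPCs, Lpl, a target of the PPARs that was 3.14-fold lower, and Hoxa5, a target of retinoic acid that was 2.33-fold higher.

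The promoter of Rxra is shown because it is the only receptor gene that changed, and 3 further stretches are shown because they hold a match to the DR5 or DR1 repeat in the promoter of 1 of the 9 receptors or of a target gene. The sequences were taken from RefSeq on the GRCr8 rat assembly, in windows of 250 bases before and 50 bases after each gene's start. Of the receptors, 8 were matched to a window in that table. In the first sequence, the 250 bases before the start of Rxra at chr3:31387642-31387891 on the plus strand, the capitals mark CG dinucleotides. In the other 3, the capitals mark the half-sites of 6 bases. They are Rarb at chr15:11336410-11336439 on the plus strand, Cyp26a1 at chr1:244883709-244883768 on the plus strand, where the match lies on the opposite strand, and Acadvl at chr10:55236706-55236745 on the minus strand.
Rxra promoter: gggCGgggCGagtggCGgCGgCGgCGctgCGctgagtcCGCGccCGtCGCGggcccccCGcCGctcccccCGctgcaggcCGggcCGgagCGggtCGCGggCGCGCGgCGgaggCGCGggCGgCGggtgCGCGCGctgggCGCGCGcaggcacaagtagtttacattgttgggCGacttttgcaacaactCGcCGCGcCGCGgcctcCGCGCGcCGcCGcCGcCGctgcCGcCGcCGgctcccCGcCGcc
Rarb DR5: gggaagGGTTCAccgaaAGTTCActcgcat
Cyp26a1 DR5: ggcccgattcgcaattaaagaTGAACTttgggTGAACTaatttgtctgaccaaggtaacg
Acadvl DR1: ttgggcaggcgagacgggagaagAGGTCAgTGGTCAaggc

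The Rxra stretch held 52 CG dinucleotides and was 82.8% G and C. The other receptor promoters, Rarg and Pparg with 2 windows each, held from 2 to 34 CG dinucleotides, and the median over all 33469 windows was 5. The DR5 letters searched were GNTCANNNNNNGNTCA and the DR1 letters GNTCANNGNTCA, where N is any base, on both strands and over the whole window of 300 bases, and neither pattern overlapped the other in the stretches shown. DR5 was found in 383 of the 33469 windows (1.14%), and of the 8 receptors with a window only Rarb held it, at positions 25 to 41 after its start. It was found in 2 of the 13 retinoic acid target genes with a window, Rarb again and Cyp26a1, which encodes the enzyme that clears retinoic acid, at positions -92 to -76. DR1 was found in 330 windows (0.986%), in none of the 8 receptors and in 1 of 34 PPAR target genes, Acadvl, which encodes the acyl-CoA dehydrogenase for very long chains, at positions -17 to -5. In the other lists, DR5 was found in Nr1i2, another partner of the RXRs, and in Kat2b, a coactivator, and DR1 in Fabp2, a fatty acid binding protein. A match of letters is a description of the sequence, and binding of any receptor was not measured.

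Expression values are log2 intensities, so that a difference of 1 is a doubling. Each fold change was tested with limma, a linear model that shares information on the spread across genes. P-values were corrected for the 17245 genes tested (Benjamini-Hochberg). A gene is said to have risen or fallen only at an adjusted p under 0.05. The level of 1 gene's probes cannot be set against that of another gene's. Because whole cultures were measured, fewer cells of a type and less RNA per cell cannot be told apart.

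The quiescent array labelled replicate 1 stood apart from the other 2 Q-NSPC arrays. Its mean distance to them, as 1 minus Pearson's r over all genes, was 0.0120 and its mean distance to the A-NSPC arrays was also 0.0120, whereas Q-NSPC replicates 2 and 3 were 0.0054 apart and no 2 A-NSPC arrays were more than 0.00663 apart. Results that turn on this array are therefore also given without it. Over all genes, 2195 rose and 1884 fell without it, against 1364 and 1069 with all arrays. Calls gained without it are set against that higher count. Of 8 markers of neural stem and progenitor cells, 1 rose (Pax6, by 1.07) and 0 fell. Sox2, a defining factor of these cells, lay between 12.25 and 12.55 in all 6 arrays, Nes differed by -0.57, Fabp7 by -0.65 and Vim by -0.14, and Prom1 lay between 4.81 and 5.86. Without Q-NSPC replicate 1, 2 of the 8 fell, Nes by 0.77 and Fabp7 by 1.00. Markers of other cell types differed between the groups. Summed levels are the log2 of the summed intensities of a list, in which the genes with the brightest probe sets weigh most. Of 7 neuron markers, 5 rose and 1 fell in Q-NSPCs. Their summed level was 13.83 to 13.87 in A-NSPCs and 14.52 to 15.11 in Q-NSPCs, lowest in Q-NSPC replicate 1. Of 4 astrocyte markers measured, 1 rose (Gfap, by 1.85), with a summed level of 9.37 to 9.76 in A-NSPCs and 10.09 to 10.25 in Q-NSPCs. The others did not pass, with differences of 0.32 for S100b, -0.06 for Aqp4 and 0.01 for Gja1. Of 6 oligodendrocyte lineage markers measured, 2 fell (Pdgfra and Olig2), and the summed level was 13.16 to 13.39 in A-NSPCs and 11.46 to 13.01 in Q-NSPCs. Olig1, which weighs most in this sum, differed by -1.55 and did not pass (limma, adjusted p = 0.0679). Without Q-NSPC replicate 1, 5 of the 6 fell, and without any 1 of the other arrays 0 did (adjusted p from 0.0655 to 0.152 for Pdgfra and Olig2). The calls of the neuron markers Stmn2, which rose, and Rbfox3, which fell, were lost without A-NSPC replicate 1 or 3 or Q-NSPC replicate 2 or 3 (adjusted p from 0.0580 to 0.110). None of the 7 microglia, 3 endothelial or 5 mural cell and fibroblast markers measured passed the test. The part of these cell types in the results that follow was not tested.

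Rxra, which encodes the RXR that most tissues use as the shared partner, measured 9.98, 9.87 and 9.65 in the A-NSPC arrays and 10.76, 11.37 and 11.25 in the Q-NSPC arrays. All Q-NSPC arrays lay above all A-NSPC arrays, and Q-NSPC replicate 1 was the lowest of its group. The mean rose from 9.83 ± 0.17 (SD, n = 3) to 11.13 ± 0.33 (SD, n = 3), a difference of 1.29 with a standard error of 0.17 and a 95% confidence interval of 0.90 to 1.69 (limma, adjusted p = 0.00556). This placed Rxra at rank 180 by fold change among the 1364 genes that rose, 323 of which rose at least 2-fold. Leaving out any 1 array kept the rise, which ranged from 1.17 to 1.48 with adjusted p from 0.000145 to 0.0364. The largest value and the smallest p were those without Q-NSPC replicate 1. With an unpaired gene-by-gene test, which takes the spread from each gene alone, Rxra no longer passed (adjusted p = 0.108). That test called 0 genes higher and 0 lower over all genes, so this loss is not particular to Rxra. The paper's main text names paired and unpaired tests for its data in general and does not say which was used on the arrays.

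**Figure D1:**
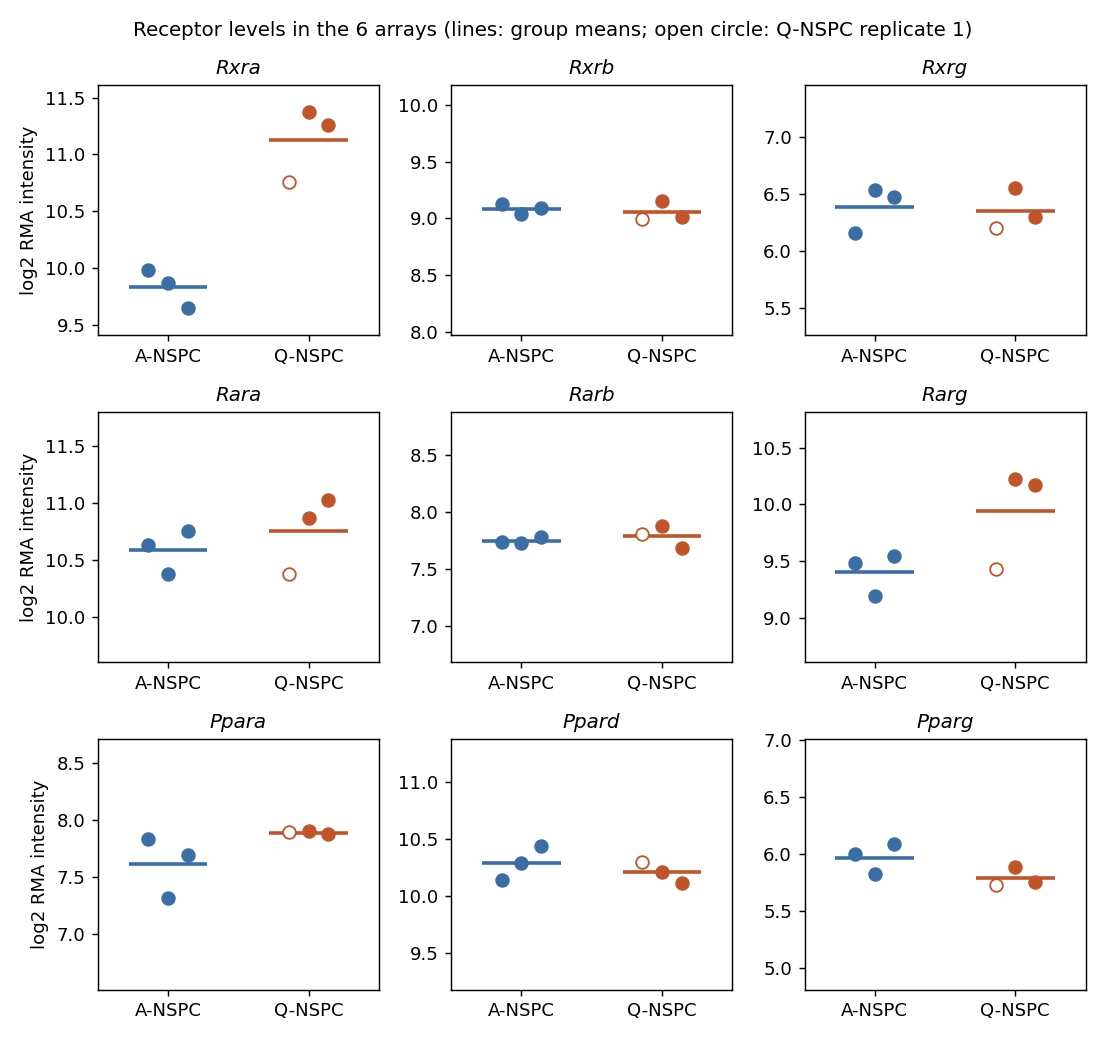
Log2 intensity (vertical axis) of each of the 9 receptors in the 3 A-NSPC and the 3 Q-NSPC arrays. Points are single arrays and the bars give group means. Rxra is separated between the groups by the widest gap, 9.98 in its highest A-NSPC array against 10.76 in its lowest Q-NSPC array, and for most other receptors the groups overlap.

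Rxrb, a broadly expressed RXR, measured 9.12, 9.04 and 9.09 in A-NSPCs and 8.99, 9.15 and 9.02 in Q-NSPCs. The groups overlapped, and the difference of -0.03 had a 95% confidence interval of -0.25 to 0.18 (adjusted p = 0.874). Rxrg, the RXR of skeletal muscle and restricted brain regions, measured 6.16, 6.54 and 6.47 in A-NSPCs and 6.20, 6.56 and 6.30 in Q-NSPCs. These values overlapped, the difference was -0.04 with an interval of -0.36 to 0.28 (adjusted p = 0.902), and its sign turned when single arrays were left out (-0.15 to 0.04). The mean of Rxrg lay below 6.41, the lower quartile of all genes, where an array value may be mostly background and a change would be hard to see.

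Among the RARs, which bind retinoic acid itself, the groups overlapped for all 3 genes. Rara measured 10.63, 10.38 and 10.76 in A-NSPCs and 10.37, 10.87 and 11.03 in Q-NSPCs, a difference of 0.17 (interval -0.24 to 0.58, adjusted p = 0.605). Rarb, a receptor gene that is itself a classical target of retinoic acid through the DR5 repeat printed above, measured 7.74, 7.73 and 7.79 in A-NSPCs and 7.81, 7.88 and 7.68 in Q-NSPCs. Its difference was 0.04 (interval -0.18 to 0.26, adjusted p = 0.850), and the other 2 of its 3 probe sets overlapped between the groups as well.

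Rarg gave the largest difference among the RARs, and its call depended on a single array. It measured 9.49, 9.20 and 9.54 in A-NSPCs and 9.43, 10.22 and 10.17 in Q-NSPCs. Q-NSPC replicate 1 lay within the A-NSPC range, and the other 2 Q-NSPC arrays lay above it. The difference of 0.53 (SE 0.21, interval 0.05 to 1.02) did not pass the test (limma, adjusted p = 0.134). Without Q-NSPC replicate 1 it was 0.79 and passed (adjusted p = 0.00316), and without each other array in turn it was 0.39 to 0.60 and did not pass.

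The PPARs showed no difference that passed the test. Ppara, the receptor that drives fatty acid oxidation in liver, measured 7.83, 7.32 and 7.70 in A-NSPCs and 7.89, 7.90 and 7.88 in Q-NSPCs. The groups did not overlap, but by a gap of only 7.83 to 7.88, and the difference of 0.27 had an interval of -0.04 to 0.59 (adjusted p = 0.230). Ppard, the broadly expressed PPAR, measured 10.14, 10.28 and 10.43 in A-NSPCs and 10.30, 10.21 and 10.11 in Q-NSPCs. These ranges overlapped, with a difference of -0.08 (interval -0.33 to 0.17, adjusted p = 0.706). Pparg, the master regulator of fat cells, measured 6.00, 5.82 and 6.09 in A-NSPCs and 5.73, 5.89 and 5.76 in Q-NSPCs, all below the lower quartile of gene means, and differed by -0.18 (interval -0.42 to 0.07, adjusted p = 0.325).

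**Figure D2:**
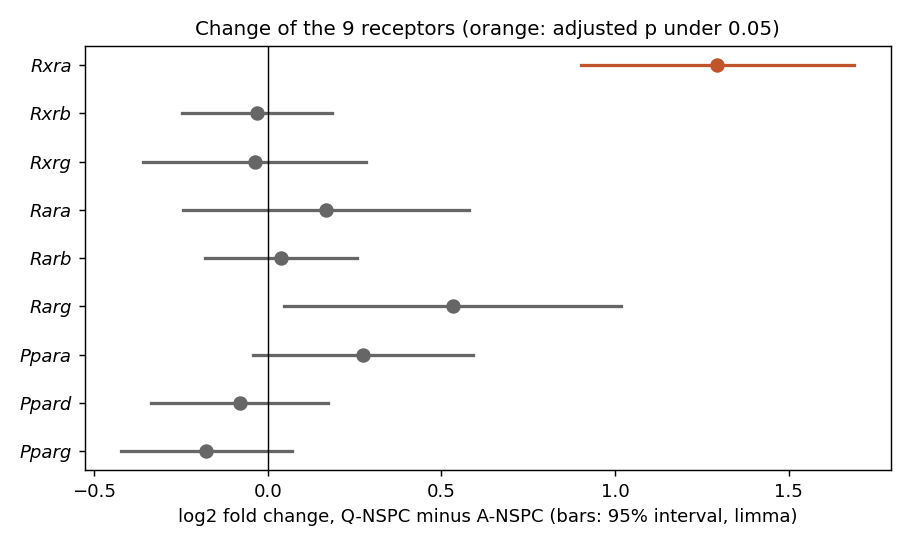
Difference in log2 intensity between Q-NSPCs and A-NSPCs (horizontal axis) for the 9 receptors, with 95% confidence intervals from the limma fit. Only the interval of Rxra, 0.90 to 1.69, belongs to a gene that passed the test after adjustment over all genes, and that of Rarg, 0.05 to 1.02, lies just above 0 without doing so.

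Over the whole family, 1 of 9 receptors rose and 0 fell, against 7.91% of all genes that rose and 6.20% that fell, so the count of receptors is close to the background. At an unadjusted limma p under 0.05, 2 receptors were higher (Rxra and Rarg) and 0 lower. The receptors' median difference was 0.04, beside 0.01 over all genes. All Q-NSPC arrays lay above all A-NSPC arrays for 2 receptors (Rxra and Ppara), against 18.7% of all genes, and below them for 0 receptors, against 15.3%.

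Whether receptors of 1 family moved apart was asked with the difference between their log2 values within each array, for the 9 pairs within the RXRs, the RARs and the PPARs. The difference Rxra minus Rxrb was 0.56 to 0.86 in A-NSPCs and 1.76 to 2.24 in Q-NSPCs, a change of 1.33, and that of Rxra minus Rxrg also changed by 1.33. In both, the groups did not overlap. The same held for Rara minus Rarg, which changed by -0.37, and for Ppara minus Pparg, which changed by 0.45. These 4 pairs reached an exact two-sided permutation p of 0.1, the smallest that 3 against 3 arrays allow, which is 0.225 after adjustment over the 9 pairs, so the design could not place any pair under 0.05. The other 5 pairs changed by -0.50 to 0.35, with exact permutation p from 0.2 to 1.

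The genes whose values followed Rxra most closely over the 6 arrays were Dusp8, a phosphatase of MAP kinases, Enpp2, which makes lysophosphatidic acid, Scamp1, a protein of secretory carrier membranes, and Lhx2, a forebrain homeodomain factor. Their Pearson r with Rxra was 0.999 for Dusp8 and Enpp2 and 0.998 for Scamp1 and Lhx2. All 4 rose in Q-NSPCs by the limma test, Enpp2 by 1.78, Dusp8 by 1.19, Scamp1 by 0.89 and Lhx2 by 0.73. As with Rxra, Q-NSPC replicate 1 was the lowest of the Q-NSPC arrays in each. Since the arrays fall into 2 groups and these genes were picked as the most alike of all genes tested, the r values are a description.

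RXRs also pair with other nuclear receptors, and of 9 such partners measured 2 rose and 1 fell, with a median difference of 0.01. Nr4a1 (Nur77), an orphan receptor of the immediate early response, measured 9.72, 9.75 and 9.75 in A-NSPCs and 9.30, 8.32 and 8.36 in Q-NSPCs, a difference of -1.08 (SE 0.24, adjusted p = 0.0254). Its close relative Nr4a2 (Nurr1), known for its part in dopamine neurons, moved the other way, from 8.86, 9.28 and 9.35 to 9.81, 9.77 and 9.61, a rise of 0.56 (adjusted p = 0.0383). The groups did not overlap in either. Nr1h3, which encodes the oxysterol receptor LXR alpha, rose by 0.41 (adjusted p = 0.0332), from 7.03, 7.14 and 7.16 to 7.40, 7.55 and 7.60. All 3 calls rested on the full set of arrays: each was lost without any 1 of the arrays other than Q-NSPC replicate 1 (adjusted p from 0.0677 to 0.125).

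The supply of retinoic acid starts with retinol carriers and binding proteins, of which 1 of 8 measured rose and 0 fell (median difference 0.06). Rbp4, which carries retinol in blood and is secreted mainly by liver, measured 7.55, 7.57 and 7.35 in A-NSPCs and 9.17, 10.16 and 9.87 in Q-NSPCs. All Q-NSPC arrays lay far above all A-NSPC arrays, and the rise was 2.25 (SE 0.23, adjusted p = 0.00248), 2.53 without Q-NSPC replicate 1, and passed without any 1 array. The gene for its partner in blood, transthyretin (Ttr), differed by -0.31 and did not pass (adjusted p = 0.126), with a mean below the lower quartile of all genes, and it fell by 0.40 without Q-NSPC replicate 1 (adjusted p = 0.0454). Stra6, the membrane receptor for Rbp4, and the genes of the cellular retinoic acid binding proteins, Crabp1 and Crabp2, overlapped between the groups, with differences of 0.04, 0.16 and 0.07.

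Retinol is oxidised to retinal by dehydrogenases and then to retinoic acid by the Aldh1a enzymes. Of 10 genes of retinoic acid synthesis measured, 0 rose and 2 fell, both of the first step, with a median difference of 0.02. The 10 include Bco1, a gene of neither step. Rdh11, a retinal reductase and retinol dehydrogenase, measured 10.21, 9.97 and 9.97 in A-NSPCs and 9.70, 9.44 and 9.57 in Q-NSPCs, a difference of -0.48 (adjusted p = 0.0306). Dhrs9 fell by 0.40 (adjusted p = 0.0390), at values of 4.98 to 5.57, below the lower quartile of gene means. Rdh10, whose enzyme makes most retinal in the embryo, differed by -0.48 and missed the threshold (adjusted p = 0.0631), and Rdh16 differed by 0.31 (adjusted p = 0.0552). Both falls were lost without any 1 of the arrays other than Q-NSPC replicate 1 (adjusted p from 0.0625 to 0.138), and without that array 3 of the genes fell, the third being Rdh10 (-0.65, adjusted p = 0.00291), and 1 rose, Aldh1a3.

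Of the 3 genes for the enzymes that make retinoic acid, none passed the test with all arrays. Aldh1a3 measured 7.84, 7.62 and 7.66 in A-NSPCs and 7.55, 9.47 and 8.46 in Q-NSPCs. The Q-NSPC arrays thus ran from below all A-NSPC arrays, in replicate 1, to far above them in replicate 2, and the difference of 0.79 had a standard error of 0.40 (adjusted p = 0.237). Without Q-NSPC replicate 1 it was 1.26 and passed (adjusted p = 0.00871). Aldh1a1 and Aldh1a2 lay between 5.31 and 6.18 in every array, below the lower quartile of gene means, with differences of -0.03 and 0.06. None of the 8 genes of retinoid storage and breakdown passed the test either (median difference 0.02). Among these, Cyp26a1, whose DR5 repeat is printed above, measured 6.39, 6.38 and 6.42 in A-NSPCs and 6.23, 6.33 and 6.27 in Q-NSPCs. Its groups did not overlap, but the difference was -0.12 with an adjusted p of 0.427. Lrat, which stores retinol as esters, differed by 0.12 and Cyp26b1 by 0.04. The means of Cyp26a1 and Lrat lay below the lower quartile of all genes.

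Of 17 measured genes known as targets of retinoic acid, 1 rose and 0 fell, with a median difference of 0.07. The gene that rose was Hoxa5, a homeobox gene of the embryonic hindbrain and spinal cord, which measured 11.41, 11.59 and 11.51 in A-NSPCs and 12.22, 12.99 and 12.95 in Q-NSPCs. The groups were well apart, and the rise was 1.22 (SE 0.20, adjusted p = 0.00997). It was lost, narrowly, without A-NSPC replicate 1 (adjusted p = 0.0583), A-NSPC replicate 3 (0.0502) or Q-NSPC replicate 3 (0.05004). Among the other Hox genes of the list, Hoxa4 differed by 0.31, Hoxb4 by 0.23, Hoxb1 by 0.18 and Hoxb5 by -0.11, and none of them passed. The targets that themselves encode a receptor, enzymes or a binding protein of the pathway, Rarb, Cyp26a1, Cyp26b1, Dhrs3, Lrat and Crabp2, had differences from -0.12 to 0.12. Both group means of Cyp26a1, Dhrs3, Lrat and Crabp2 lay below 6.41, the lower quartile of all genes, where a change would be hard to see. In the direction opposite to Hoxa5, the gene with the smallest p was Rarres1, at -0.18 (adjusted p = 0.357).

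**Figure D3:**
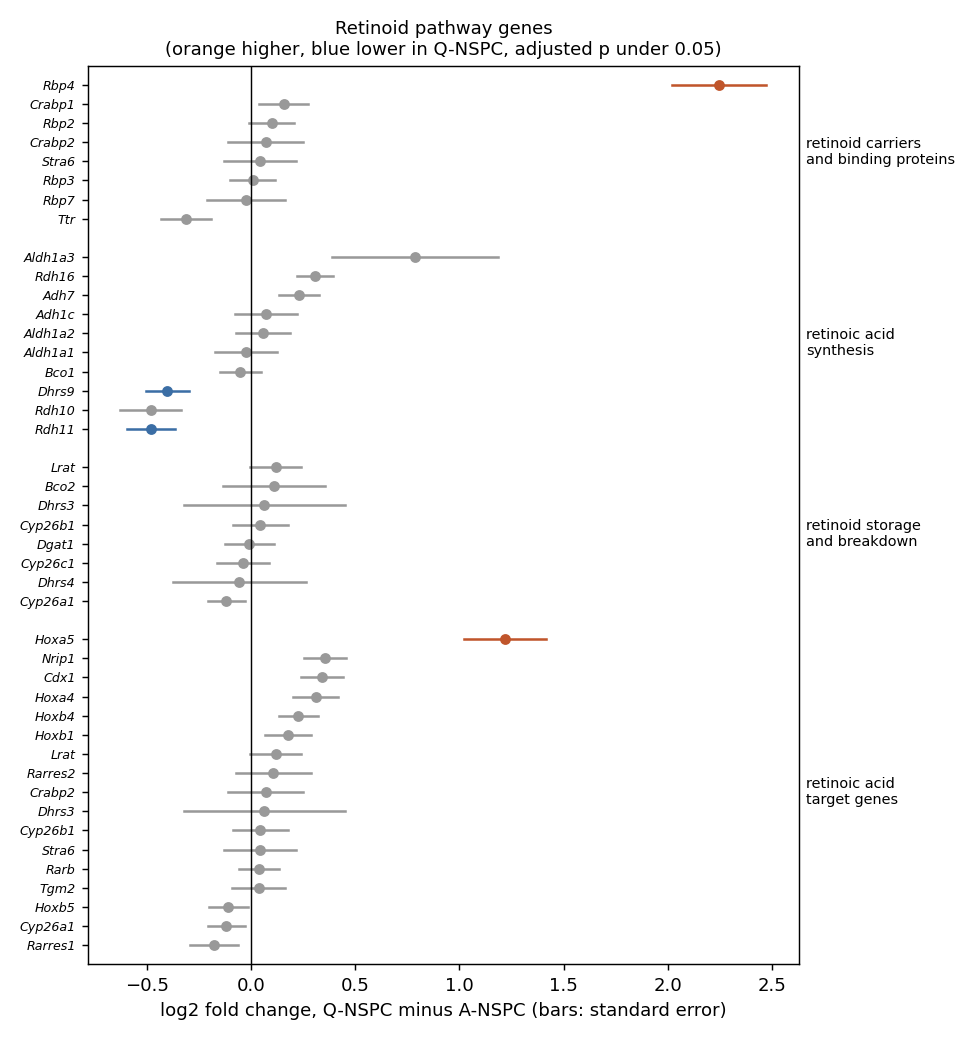
Difference in log2 intensity between Q-NSPCs and A-NSPCs (Q-NSPC minus A-NSPC) for measured genes of the retinoid pathway, grouped by role. Rbp4, at 2.25, and Hoxa5, at 1.22, are the genes that rose, Rdh11 and Dhrs9 are those that fell, and most others lie near 0.

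The targets of the PPARs changed in both directions. Of 40 measured, 9 rose and 3 fell, which is beside 7.91% and 6.20% of all genes, and the median difference was 0.11. Angptl4, a classical PPAR target that encodes an inhibitor of lipoprotein lipase, measured 6.39, 5.96 and 6.20 in A-NSPCs and 7.01, 7.27 and 7.55 in Q-NSPCs, a rise of 1.09 (SE 0.16, adjusted p = 0.00786). Lpl, which encodes lipoprotein lipase itself, measured 10.26, 10.17 and 10.32 in A-NSPCs and 9.31, 8.24 and 8.26 in Q-NSPCs, a difference of -1.65 (SE 0.26, adjusted p = 0.00952). In both genes the groups were clearly separated, and in Lpl the array nearest to the A-NSPCs was again Q-NSPC replicate 1.

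Several of the targets that rose encode the mitochondrial route of fatty acid oxidation. Cpt1a, the carnitine transferase that admits long chains to mitochondria, measured 10.02, 9.69 and 9.97 in A-NSPCs and 10.55, 11.01 and 11.11 in Q-NSPCs, a rise of 1.00 (SE 0.16, adjusted p = 0.0103). Acadvl, which carries the DR1 match printed above, measured 9.22, 9.62 and 9.42 in A-NSPCs and 9.90, 10.48 and 10.42 in Q-NSPCs, a rise of 0.85 (SE 0.17, adjusted p = 0.0203). Cpt2, the inner membrane partner of Cpt1a, rose by 0.73 and Acaa2, the last enzyme of the spiral, by 0.63. The groups did not overlap in any of these 4 genes. Cat, the catalase of peroxisomes, rose by 0.85, Slc27a1, a fatty acid transporter, by 0.47, and Acot2, a mitochondrial thioesterase, by 0.47, and the oxysterol receptor gene Nr1h3, given above, completes the 9.

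Other targets of the same functions fell or did not pass the test. Ehhadh, the bifunctional enzyme of peroxisomal oxidation, fell by 0.89 (adjusted p = 0.0152), and Acsl3, which activates long-chain fatty acids, fell by 0.85 (adjusted p = 0.0109). Hadha and Hadhb, the subunits of the mitochondrial trifunctional protein, overlapped between the groups and differed by 0.04 and -0.02. Further textbook targets also overlapped or missed the threshold: Plin2, a coat protein of lipid droplets, differed by 0.14, Pdk4, which restrains glucose oxidation, by 0.27, and Ucp2 by -0.22. Fabp4 and Adipoq, targets of Pparg in fat cells, lay between 5.11 and 6.19 in every array, with differences of 0.07 and 0.08.

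The counts of PPAR targets depended on the arrays used. The number that rose was 2 when A-NSPC replicate 1 was left out, 5 when it was A-NSPC replicate 2 and 3 when it was A-NSPC replicate 3. It was 11 when Q-NSPC replicate 1 was left out and 3 for either of the other 2 Q-NSPC arrays. The number that fell was 0 without A-NSPC replicate 1 or 3, 2 without Q-NSPC replicate 3 and otherwise 3. Without Q-NSPC replicate 1, Acadl, Acadm and Me1 passed as well, and Acot2 no longer did (adjusted p = 0.0506). Angptl4 and Cpt1a passed without any 1 array. Cat was lost without A-NSPC replicate 1 (adjusted p = 0.0538), Lpl without A-NSPC replicate 1 (0.0532) or 3 (0.0502), Ehhadh without the same 2 arrays (0.0637 and 0.0657), and Acsl3 without either of them or Q-NSPC replicate 3 (0.0547 to 0.0598). Cpt2 and Acadvl were lost without A-NSPC replicate 1 or 3 or Q-NSPC replicate 2 or 3 (0.0586 to 0.0880).

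**Figure D4:**
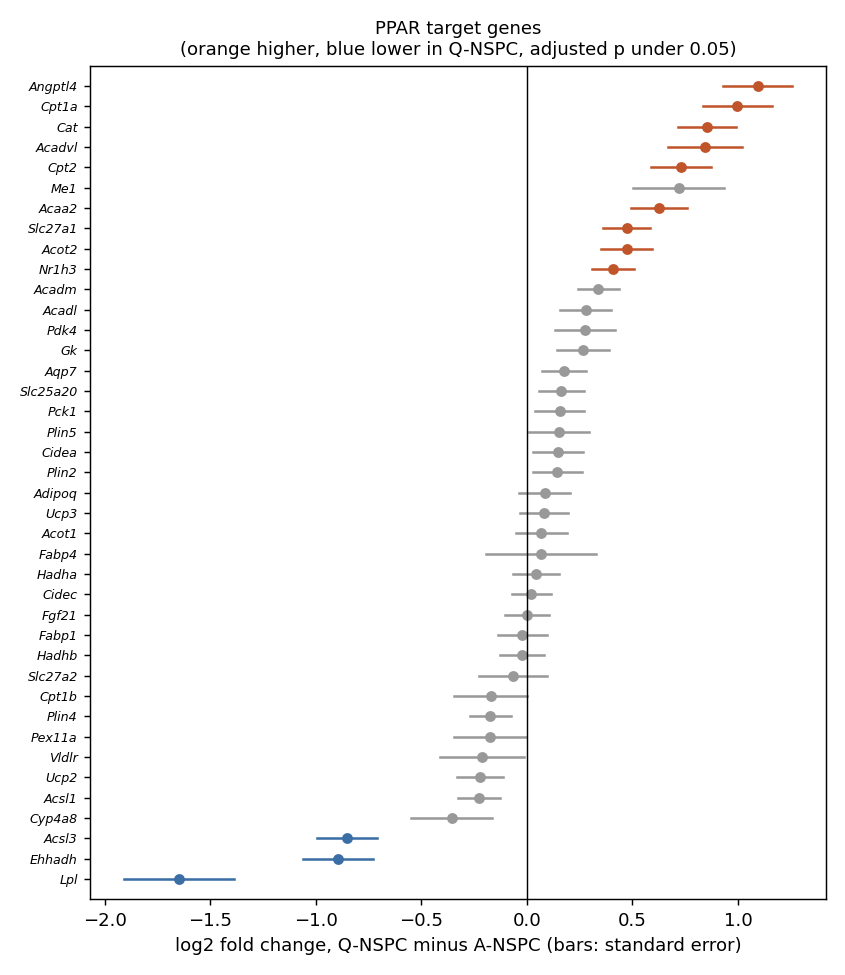
Difference in log2 intensity between Q-NSPCs and A-NSPCs (Q-NSPC minus A-NSPC) for the 40 measured PPAR target genes. The 9 that rose are led by Angptl4 (1.09) and Cpt1a (1.00), the 3 that fell are Lpl, Ehhadh and Acsl3, and the other 28 did not pass the test.

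None of the 6 fatty acid binding protein genes measured passed the test (median difference -0.04). Fabp5, whose protein carries ligands to Ppard in cell models, measured 10.51, 10.25 and 10.31 in A-NSPCs and 10.16, 9.84 and 9.75 in Q-NSPCs. The groups did not overlap, and the difference of -0.44 missed the threshold (adjusted p = 0.0622). Fabp7, the fatty acid binding protein of radial glia, measured 12.48, 12.77 and 12.79 in A-NSPCs and 12.72, 11.48 and 11.87 in Q-NSPCs, with Q-NSPC replicate 1 inside the A-NSPC range and the other 2 below it (difference -0.65, adjusted p = 0.162). Without that array both genes fell, Fabp5 by 0.56 (adjusted p = 0.00947) and Fabp7 by 1.00 (adjusted p = 0.00224).

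Nuclear receptors act through coactivators and corepressors. Of 12 coactivator genes measured, 4 rose and 0 fell, with a median difference of 0.34, and of 8 corepressor genes measured none passed the test, with a median difference of 0.12. The difference between the 2 lists was not tested. Ncoa2, a p160 coactivator of nuclear receptors, measured 9.59, 9.76 and 9.68 in A-NSPCs and 10.24, 10.48 and 10.72 in Q-NSPCs, a rise of 0.80 (SE 0.13, adjusted p = 0.0112). The groups did not overlap in it, nor in the other 3 that rose, which were its relatives Ncoa1 (0.49, adjusted p = 0.0273) and Ncoa3 (0.52, adjusted p = 0.0474) and the acetyltransferase gene Crebbp (0.39, adjusted p = 0.0399). Ppargc1a, the coactivator of mitochondrial genes, differed by 0.54 and missed the threshold (adjusted p = 0.0650), and its relative Pprc1 differed by -0.47 (adjusted p = 0.0760). Among the corepressors, Ncor1 differed by 0.12 and Hdac3, its deacetylase partner, by -0.04, and Nrip1, which is also a retinoic acid target, came closest to the threshold at 0.35 (adjusted p = 0.0528).

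The coactivator calls also depended on the arrays used. The count that rose was 0 without A-NSPC replicate 1 or 3, 1 without A-NSPC replicate 2 or Q-NSPC replicate 2 or 3, and 6 without Q-NSPC replicate 1. Without that last array 2 also fell, Pprc1 by 0.60 (adjusted p = 0.0153) and Prmt1 by 0.45 (adjusted p = 0.0464), and Ppargc1a was among those that rose (0.70, adjusted p = 0.00800). Ncoa2 was lost without A-NSPC replicate 1 (adjusted p = 0.0607) or 3 (0.0532), Ncoa1 and Ncoa3 without any 1 of the arrays other than Q-NSPC replicate 1 (0.0587 to 0.163), and Crebbp without any 1 of the 6 (0.0504 to 0.143). Ncoa3 was also lost with a further quantile normalisation (0.0507) or with arrays centred on their medians (0.0531).

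**Figure D5:**
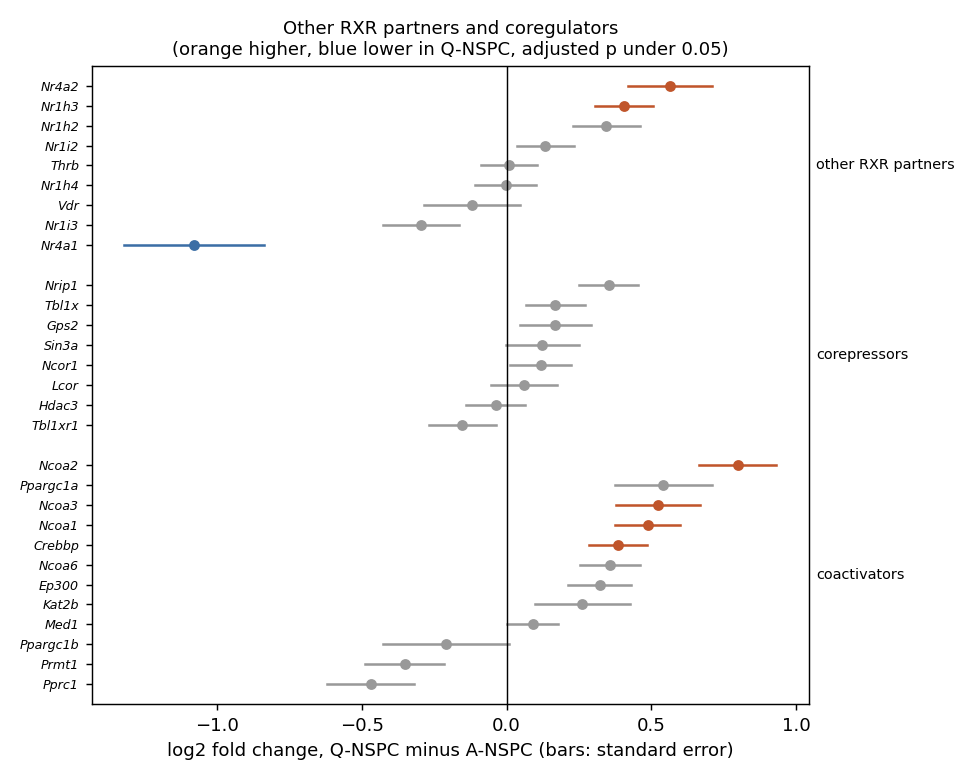
Difference in log2 intensity between Q-NSPCs and A-NSPCs (Q-NSPC minus A-NSPC) for other partners of the RXRs, corepressors and coactivators. Nr4a1 (-1.08) is the gene that fell, Ncoa2 (0.80) leads the 4 coactivators that rose, and no corepressor passed the test.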

How the data were processed

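The deposited values of the 6 arrays are log2 intensities that the authors made with RMA (background correction, quantile normalisation, probe summary); the labels name Affymetrix Expression Console and Partek 6.10. They were used as deposited, with array medians of 7.53 to 7.57, and no scan files were used here. RMA gives no detection call and the number of arrays limits the precision. Of 29214 probe sets, 18644 carry 1 gene symbol, 962 several and 9608 none. The 17245 genes so named were tested, with the brightest probe set for the 879 genes with several, in limma 3.58.1 under R 4.3.3 (two-sided, 1 mean per group, default eBayes). In simulated data, a check required most of the largest changes set to be called, few of the unchanged genes to be called, and fold changes to follow those set. It set no condition on how many of the smaller changes were called. The receptors, and 9 further lists holding 107 measured genes, were chosen with earlier results of these data known. Named were all receptors, and in each list the genes with an adjusted p under 0.05 (at most 8, by smallest p), the gene of smallest p in the opposite direction, and the 4 genes most alike to Rxra. Other genes in the text were named after their values were seen. Lists hold only genes with a single symbol here; the others were not used. Alternatives were: each array left out, replicate number as a block, the mean of probe sets, dim genes left out, a further quantile normalisation or median centring, eBayes with trend and robust settings, and t-tests.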

Additional observations from a re-analysis of the deposited data

How the results depend on the processing

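In limma, Rxra rose and the count of receptors that rose stayed at 1 under every alternative except one: without Q-NSPC replicate 1 it was 2 (Rxra and Rarg), so leaving out single arrays gave 1 to 2. No receptor fell under any alternative. The count of all genes that rose (1364) ran from 317 without A-NSPC replicate 1 to 2195 without Q-NSPC replicate 1, and of those that fell (1069) from 102 to 1884 without the same arrays. With an unpaired t-test the counts after adjustment were 0 and 0 over all genes (2399 and 1842 at an unadjusted p under 0.05) and 0 receptors (1 at an unadjusted p). With a paired t-test, which is a replicate block, they were 1 and 0 (1542 and 1174 unadjusted) and 0 receptors (1 unadjusted), with an adjusted p of 0.309 for Rxra. Deviations of arrays that share a number had correlations of -0.06, 0.01 and -0.03 across genes, against up to 0.08 for other pairs, so the numbers were not taken as pairs. In limma, the replicate block gave 1093 and 950 genes and left Rxra called (adjusted p = 0.0125), but called 0 in place of 2 RXR partners as higher, 2 in place of 4 coactivators as higher and 1 in place of 0 as lower, 1 in place of 2 retinoic acid synthesis genes as lower, and 1 in place of 0 fatty acid binding proteins as lower. Leaving out single arrays turned the sign of Rxrg (-0.15 to 0.0384), of Rarb (-0.0069 to 0.0909), of the astrocyte marker Aqp4 (-0.15 to 0.0039) and of the pair differences Rxrb minus Rxrg (-0.0895 to 0.14) and Rara minus Rarb (-0.0574 to 0.33). Rxrg and Pparg have no value with the lower quartile of genes left out. With 3 arrays a group the interval of the difference in Rarg ran from 0.05 to 1.02, and the arrays give no measure of whether a dim value is above background.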
